A study of Mus musculus with 48 samples.

Results

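The 9 genes described here encode the peroxiredoxins (Prdx1, Prdx2, Prdx3, Prdx4, Prdx5 and Prdx6) and the thioredoxin system that keeps most of them reduced (Txn1, Txn2 and Txnrd1). They were chosen by name, with earlier results of these data known, and all 9 were found among the 20007 genes of the count table. Their transcripts were measured in 48 spleen libraries of 16 mice that had been given sheep red blood cells, a standard way to raise germinal center (GC) reactions. The 8 mice called c-RelTG carried a transgene for c-Rel, an NF-kB family protein whose own mouse gene is Rel, and the 8 controls did not; both genotypes carried 1 further allele, which is not reported here. From each mouse 1 library of 1000 sorted cells was made of naive B cells (high IgD, low IgM), of GC B cells (B220 and GL7 positive, IgD negative, low CD38, high CD95) and of plasma cells (low B220, CD138 positive), which gave 6 groups of 8 mice. The sources used here do not state what drives the transgene, nor the strain, age or sex of the mice.

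Peroxiredoxins are abundant enzymes that reduce hydrogen peroxide and organic peroxides through a reactive cysteine. Most are returned to their active form by thioredoxin, a small protein with a pair of redox-active cysteines, and thioredoxin is in turn reduced by thioredoxin reductase, a selenoprotein that draws its electrons from NADPH. The family is divided by compartment: Prdx1, Prdx2 and Prdx6 act mainly in the cytosol, Prdx3 in mitochondria, Prdx4 in the endoplasmic reticulum (ER), and Prdx5 in mitochondria, peroxisomes and cytosol, with Txn1 and Txnrd1 serving the cytosol and Txn2 the mitochondria. In antibody-secreting cells, where immunoglobulin chains are joined by disulfide bonds in the ER and peroxide forms as a by-product, Prdx4 is known as a peroxidase that also passes oxidizing equivalents to protein disulfide isomerases.

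The promoter sequences of 4 of these genes are shown because Prdx4, Txn1 and Prdx1 held the largest population differences and Txnrd1 is the reductase of the system. RefSeq promoter windows (GRCm38.p6, 250 bases before to 50 after a start site) were found for 8 of the 9 genes, with 3 start sites for Txnrd1; Prdx6 had no entry. The antioxidant response element core TGACNNNGC, bound by NRF2, was searched on both strands and was present in 12.4% of 32851 promoters. It was found in Prdx1 (from -133 to -125 relative to the start) and at the second Txnrd1 start (from -92 to -84), on the opposite strand in both. The E-box CACGTG, present in 7.15% of promoters, was found in Prdx4 (from -52 to -47), and the kappaB motif, present in 8.46%, was found in Prdx1 (from -170 to -161). The motifs found did not overlap each other. The unfolded protein response element core TGACGTG (2.01% of promoters) and the ER stress element (0.119%) were in none of the 10 windows. Capitals mark the E-box in Prdx4 at chrX:155338495-155338524 (minus strand), and the antioxidant response element core in Prdx1 at chr4:116685439-116685538 (plus strand) and in Txnrd1 at chr10:82859104-82859133 (plus strand). None of the searched motifs was in the window of Txn1, whose 100 bases before the start lie at chr4:57956412-57956511 (minus strand). The stretches of Txn1 and Prdx1 lie between annotated genes in GENCODE, and those of Prdx4 and Txnrd1 lie within the annotated spans of these genes.
Prdx4: ggagcttgcgccCACGTGgcggaggggcgg
Txn1: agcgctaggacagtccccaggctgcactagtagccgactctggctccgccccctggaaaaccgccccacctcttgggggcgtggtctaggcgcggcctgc
Prdx1: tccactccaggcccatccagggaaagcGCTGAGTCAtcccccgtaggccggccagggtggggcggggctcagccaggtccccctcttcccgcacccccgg
Txnrd1: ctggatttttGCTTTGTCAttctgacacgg

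In GENCODE coordinates of GRCm38, the genes are protein coding and lie at chr4:116685544-116700822 (Prdx1), chr8:84969587-84974834 (Prdx2), chr19:60864051-60874556 (Prdx3), chrX:155323918-155340754 (Prdx4), chr19:6906697-6910106 (Prdx5), chr1:161240112-161251219 (Prdx6), chr4:57943373-57956411 (Txn1), chr15:77915047-77929006 (Txn2) and chr10:82833951-82897712 (Txnrd1). Prdx2 overlaps Junb and Rnaseh2a, and Prdx5 overlaps Trmt112, each on the opposite strand. Whether the counting used strand is not given in the sources used here, so counts of these pairs may be mixed. Among genes searched by name, near copies held few unique molecular identifiers (UMIs, each standing for 1 captured transcript) over all libraries: 21 for Prdx6b and 1 for Prdx2-rs3. Copies under other names were not searched. How reads shared with a copy were counted is not given, and loss of such reads was not tested.

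Levels are given as CPM, UMI counts scaled to a common effective library total by TMM. Since each molecule is counted once at its 3′ end, genes were compared without division by length. How evenly the ends of different genes were captured and mapped was not tested. Libraries held 97993 to 159857 UMIs in naive B cells, 401207 to 695137 in GC B cells and 481229 to 794273 in plasma cells. Ighm, which is on the list of naive markers, is also made by plasma cells, and with it the list summed to 9260 CPM in control naive, 2523 in GC and 290028 in plasma cells. Without it, the sums were highest in the population of each label. Naive markers were at 4985 CPM in control naive B cells, 607 in GC B cells and 285 in plasma cells, GC markers at 81.2, 1378 and 63.2, and plasma cell markers at 1811, 2532 and 127375. Rel averaged 12.4 ± 4.73 CPM (SD, n = 8) in control and 26.6 ± 6.80 in c-RelTG GC B cells, and 31.3 ± 16.8 against 27.1 ± 17.5 in naive B cells, where the transgenic libraries did not stand above the controls. In plasma cells Rel had 1 UMI in all control libraries together and 18 in the c-RelTG libraries. The immunoglobulin share of UMIs was 50.3% in control and 49.7% in c-RelTG plasma cells, against 2.03% and 1.10% in control naive and GC B cells. Erythroid markers summed to over 500 CPM in 4 libraries, those of GC B cells of control mouse 3 and c-RelTG mice 6 and 15 and of plasma cells of control mouse 1.

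The most abundant of the 9 was Prdx1 in naive B cells, with 28.9% of their summed CPM in controls and 25.3% in c-RelTG mice. Prdx1 and Txn1 led in GC B cells and Prdx4 in plasma cells. Prdx4 took 47.0% ± 2.27 (SD, n = 8) of the summed CPM of the 9 genes in control plasma cells and 46.8% ± 2.01 in c-RelTG plasma cells. It took 6.0% ± 1.36 in control naive and 4.57% ± 0.560 in control GC B cells. Prdx1 and Txn1 took 35.7% ± 2.11 and 29.4% ± 2.48 of the sum in control GC B cells, where Txn1 had taken 10.8% ± 3.19 in naive B cells. These shares do not depend on how libraries are scaled. The summed level of the 9 genes rose from 1019 ± 72.3 CPM in control naive B cells to 2332 ± 137 in GC B cells and 3220 ± 306 in plasma cells. As a share of all UMIs the order was different, at a mean of 0.133%, 0.318% and 0.167%.

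**Figure D1:**
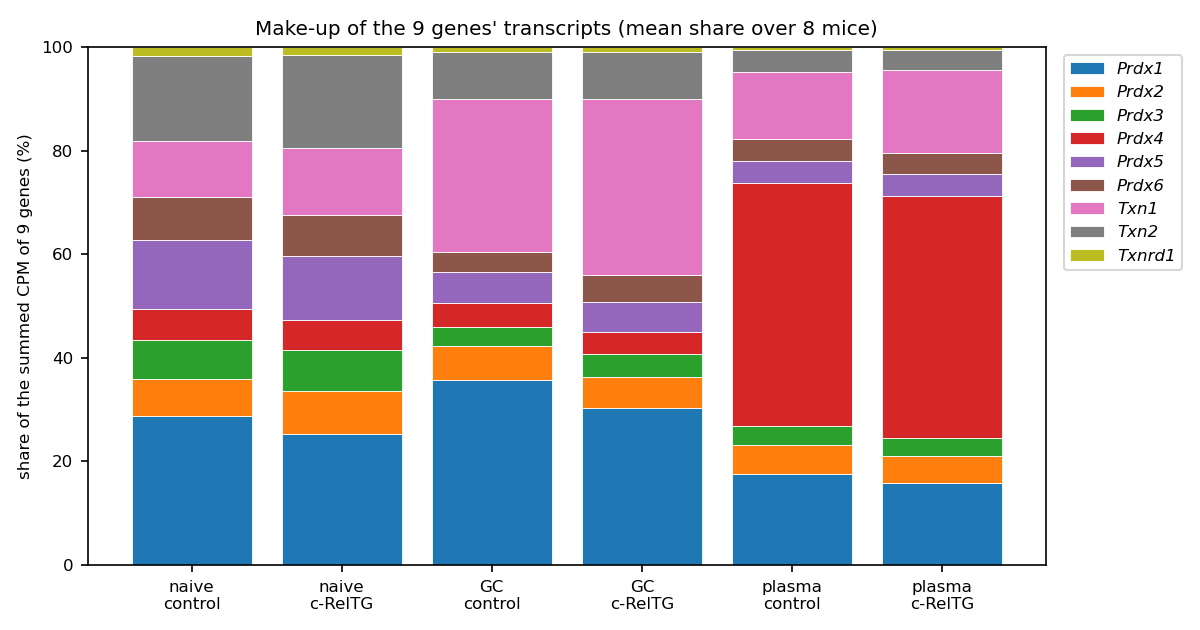
Stacked bars give the mean share (percent, vertical axis) of each of the 9 genes in their summed CPM, for 6 groups of 8 mice (horizontal axis). Prdx4 takes 47.0% and 46.8% in plasma cells of control and c-RelTG mice, against 4.57% in control GC B cells.

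The place of most genes in the order within a group overlapped that of their neighbours. In control naive B cells the 8 values of Prdx1 lay above all values of the next gene, Txn2, whereas Txn2, Prdx5, Txn1, Prdx6, Prdx3, Prdx2 and Prdx4 each overlapped the next in order. In control GC B cells Prdx1 overlapped Txn1, and Txn1 lay apart from Txn2. Txnrd1 had the lowest mean in all 6 groups and lay apart from the next gene in GC B cells and plasma cells of both genotypes. In control plasma cells Prdx4 lay apart from Prdx1 below it, and Txn1 lay apart from Prdx2.

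**Figure D2:**
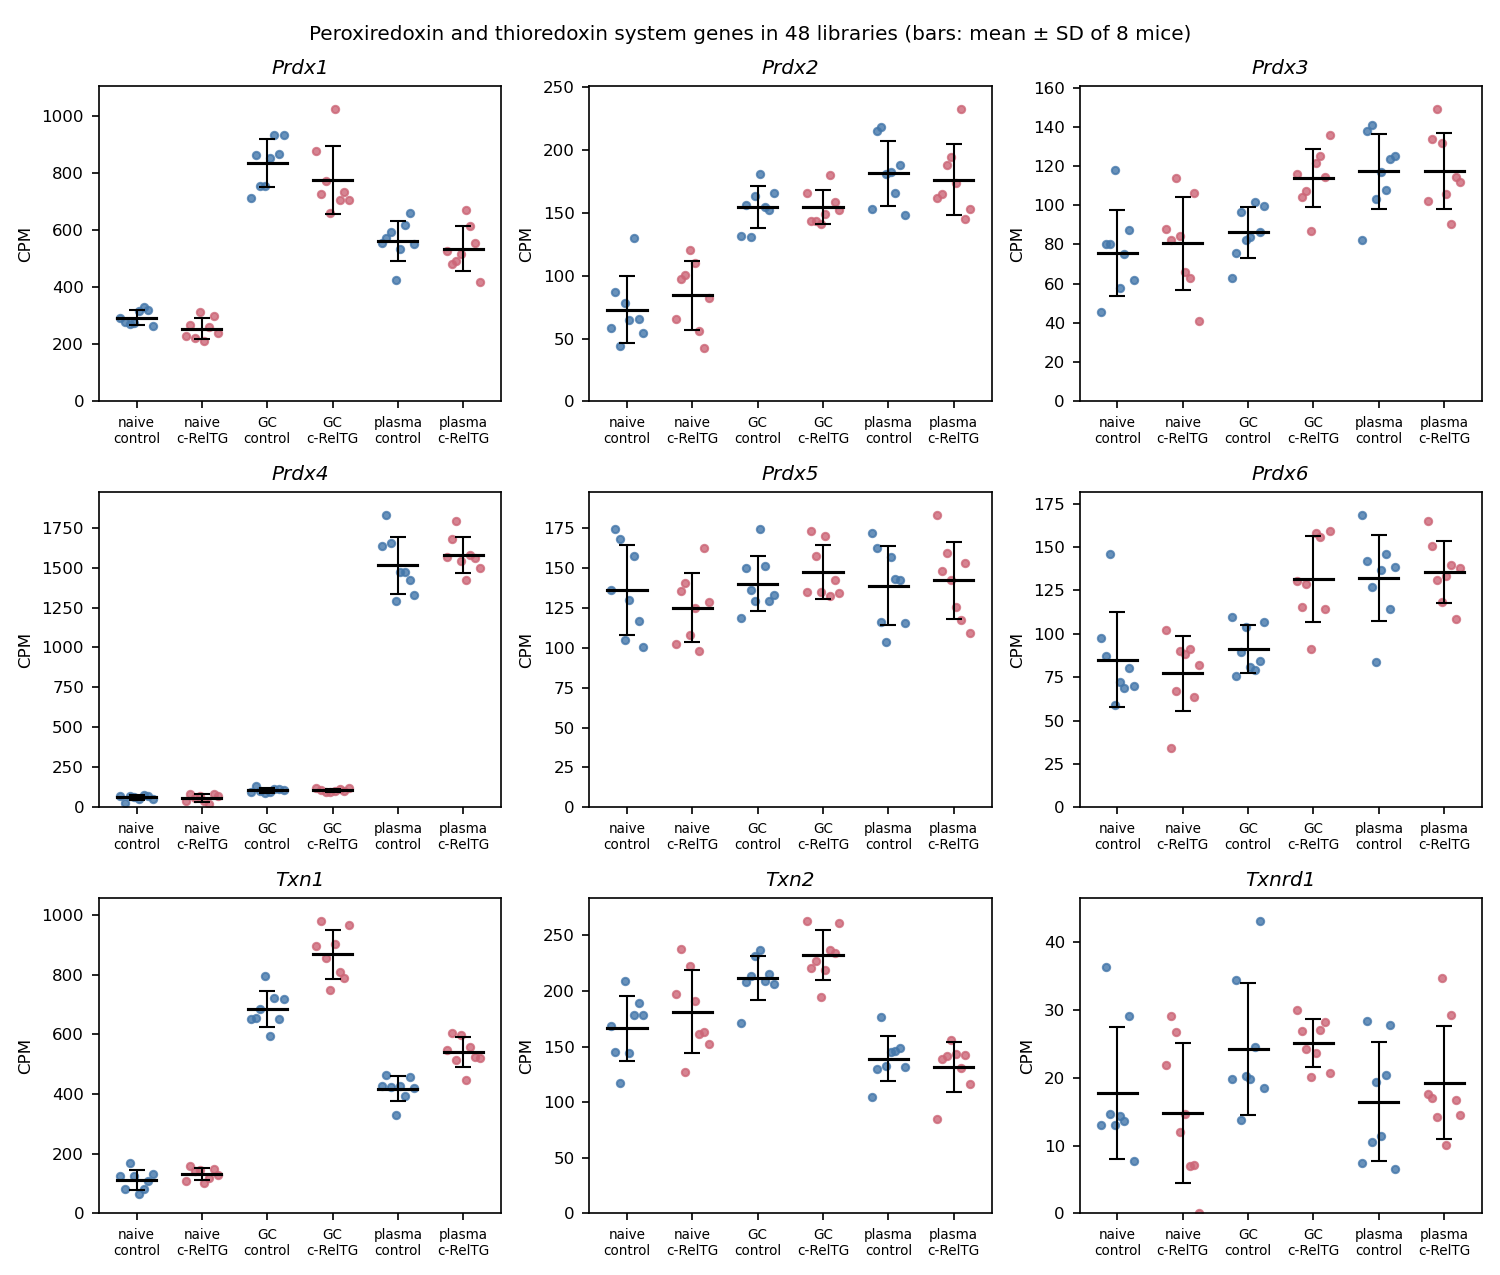
Points give the CPM (vertical axis, starting at 0 in each panel) of each of the 9 genes in 48 libraries, with the mean and SD of 8 mice per group; controls are blue and c-RelTG mice red. Prdx4 values in plasma cells lie between 1288 and 1827 CPM, above every other library, and Txn1 values in GC B cells lie between 594 and 978 CPM.

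The first comparison asked how the system differs between the 3 stages of B cell differentiation. In control mice 5 of 9 genes were higher in GC than in naive B cells and none was lower (background: 26.6% of 6503 genes tested were higher, 24.7% lower). The median log2 difference was 0.44 over the 9 genes, against 0.00155 over all genes. In plasma cells 6 of 9 genes were higher than in naive B cells (27.1% of all genes) and none was lower (25.4%). Between plasma cells and GC B cells 4 were higher (30.4% of all genes) and 3 lower (35.4%). Calls are those of edgeR's quasi-likelihood test at a Benjamini-Hochberg adjusted p under 0.05. In bulk samples, fewer cells of a type and less RNA per cell cannot be told apart. Scaling by uncorrected library totals moved the median of all genes by -1.38 (plasma cells against naive) and -1.45 (plasma cells against GC) on the log2 scale in control mice, and by -1.23 and -1.32 in c-RelTG mice, so directions involving plasma cells are relative to the other genes. With that scaling the counts in control mice became 2 higher (Prdx4 and Txn1) and 6 lower (all others but Prdx2) in plasma cells against naive, and 1 higher (Prdx4) and 8 lower against GC. In c-RelTG mice they became 2 higher and 5 lower, and 1 higher and 8 lower.

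Prdx4, the peroxidase of the ER, had the largest difference of the 9. In control mice its CPM ran from 29.1 through a median of 68.5 to 75.4 in naive B cells. It ran from 91.8 through 105 to 134 in GC B cells and from 1288 through 1473 to 1827 in plasma cells. The 3 populations did not overlap, and plasma cells were above both others in 16 of 16 mice. The log2 difference was 4.63 (SE 0.12, adjusted p = 3.04e-66) from naive and 3.85 (SE 0.08, adjusted p = 1.44e-73) from GC B cells, and it kept its direction with uncorrected library totals (3.24 and 2.39). Prdx4 was also higher in GC than in naive B cells, by 0.78 (SE 0.15, adjusted p = 2.35e-05). Naive libraries held a mean of 8.75 Prdx4 UMIs. They also held Jchain, a plasma cell gene, at 869 ± 522 CPM against 106159 ± 17689 in plasma cells, and the part of such RNA in the naive Prdx4 level was not tested.

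Prdx1, the most abundant cytosolic peroxidase of B cells here, peaked in GC B cells. Control values ran from 263 through a median of 284 to 329 CPM in naive B cells, from 713 through 858 to 934 in GC B cells and from 423 through 563 to 661 in plasma cells. The 3 populations did not overlap, and in each of the 16 mice the order was GC, plasma, naive. Prdx1 was higher in GC than in naive B cells by 1.504 (SE 0.09, adjusted p = 1.14e-31) and lower in plasma cells than in GC B cells by a log2 difference of -0.54 (SE 0.07, adjusted p = 5.33e-11). Its rise of 0.97 from naive to plasma cells (SE 0.09, adjusted p = 2.22e-17) became -0.43 with uncorrected library totals.

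Prdx2, which in red cells is among the most abundant proteins, was lower than Prdx1 in all groups. In control mice it ran from 43.9 through a median of 65.3 to 130 CPM in naive B cells, from 131 through 155 to 181 in GC B cells and from 148.1 through 182 to 219 in plasma cells. Naive libraries lay below both other populations, which overlapped. The differences from naive were 1.07 in GC B cells (SE 0.16, adjusted p = 3.22e-09) and 1.33 in plasma cells (SE 0.16, adjusted p = 2.80e-12), the latter at -0.06 with uncorrected library totals. The smaller difference between plasma and GC B cells, 0.25 (SE 0.11, adjusted p = 0.0297), was lost with the mouse as a block (0.21, adjusted p = 0.0642) and without mouse 2, 3 or 11 (adjusted p = 0.0832, 0.137 and 0.0606). It was -1.20 with uncorrected library totals and -0.22 in counts thinned to 1 depth (adjusted p = 0.394). In the libraries with 1111, 1107, 540 and 533 CPM of erythroid transcripts Prdx2 was at 144, 153, 159 and 131 CPM, which was inside the range of the other mice of its group in all but the last, the lowest of the control GC libraries. Without the control mice among them, an alternative chosen after seeing the data, the difference between plasma and GC B cells was 0.18 (adjusted p = 0.19).

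Prdx6, a cytosolic peroxidase with a single reactive cysteine that uses glutathione in place of thioredoxin, was higher in plasma cells than in both other populations of control mice. Its values ran from 58.9 through a median of 76.2 to 146 CPM in control naive B cells, from 75.7 through 87.1 to 110 in GC B cells and from 84.0 through 138 to 168 in plasma cells. All 3 ranges overlapped. Plasma cells were higher than naive by 0.66 (SE 0.17, adjusted p = 0.000571) and higher than GC B cells by 0.55 (SE 0.12, adjusted p = 5.55e-05), at -0.74 and -0.91 with uncorrected library totals. In thinned counts both calls were lost (0.50 and 0.22, adjusted p = 0.104 and 0.469). The difference between GC and naive B cells was 0.11 (95% interval -0.22 to 0.44, adjusted p = 0.618).

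The mitochondrial peroxidase Prdx3 had a like pattern in controls. Its control values ran from 45.5 through a median of 77.7 to 118 CPM in naive B cells, from 63.1 through 85.1 to 102 in GC B cells and from 82.3 through 120 to 141 in plasma cells. Plasma cells were higher than naive by 0.65 (SE 0.18, adjusted p = 0.00099) and higher than GC B cells by 0.46 (SE 0.13, adjusted p = 0.000766), at -0.74 and -0.99 with uncorrected library totals. In thinned counts these calls were lost too (0.49 and 0.36, adjusted p = 0.109 and 0.245). Prdx5 was called in none of the population comparisons of either genotype. With uncorrected library totals it was called lower in plasma cells of control mice against naive and GC B cells (-1.34 and -1.44, adjusted p = 1.25e-13 and 3.82e-23). In c-RelTG GC against naive B cells it was called with that scaling (0.30, adjusted p = 0.0424) and without the expression filter (0.42, adjusted p = 0.011). Its 6 group means lay between 125 and 147 CPM, and its interval in control mice was -0.23 to 0.31 for GC against naive and -0.24 to 0.34 for plasma cells against naive.

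Txn1, the cytosolic thioredoxin, had the largest difference between GC and naive B cells. In control mice it ran from 64.9 through a median of 116 to 168 CPM in naive B cells, from 594 through 669 to 796 in GC B cells and from 329 through 425 to 463 in plasma cells. The ranges were apart, with the order GC, plasma, naive in 16 of 16 mice. The log2 difference was 2.62 for GC against naive (SE 0.11, adjusted p = 3.14e-43), 1.94 for plasma cells against naive (SE 0.12, adjusted p = 8.88e-30) and -0.69 for plasma cells against GC (SE 0.08, adjusted p = 6.00e-14). All 3 kept their direction with uncorrected library totals. The ratio of Txn1 to its mitochondrial counterpart Txn2 was 0.693 ± 0.319 in control naive B cells, 3.26 ± 0.389 in GC B cells and 3.06 ± 0.561 in plasma cells.

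Txn2, the thioredoxin of mitochondria, varied less and had its lowest control mean in plasma cells. Control values ran from 117 through a median of 174 to 209 CPM in naive B cells, from 171 through 211 to 237 in GC B cells and from 105 through 139 to 176 in plasma cells. All 3 ranges overlapped, yet Txn2 was lower in plasma cells than in GC B cells in 16 of 16 mice (-0.57, SE 0.10, adjusted p = 7.08e-07). Against naive B cells the difference was -0.23 (95% interval -0.49 to 0.03, adjusted p = 0.147), and it was called without mouse 3 (-0.34, adjusted p = 0.0405). The difference of 0.34 between GC and naive B cells (SE 0.12, adjusted p = 0.0125) was lost without mouse 3 or 9 (adjusted p = 0.0598 and 0.0549) and in thinned counts (0.0518). Txnrd1, the cytosolic reductase, was called in no population comparison of either genotype. With uncorrected library totals it was called lower in control plasma cells against naive and GC B cells (-1.44 and -1.94, adjusted p = 0.00201 and 5.11e-11). In c-RelTG GC against naive B cells it was called with that scaling (0.79, adjusted p = 0.0433), without the filter (0.89, adjusted p = 0.0382) and without mouse 6 (0.96, adjusted p = 0.0357). Txnrd1 averaged 17.8 ± 9.70 CPM in control naive, 24.3 ± 9.69 in GC B cells and 16.5 ± 8.73 in plasma cells, from 2.50, 14.9 and 5.0 UMIs per library, and its interval for GC against naive, -0.26 to 1.14, shows how little this depth could resolve.

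**Figure D3:**
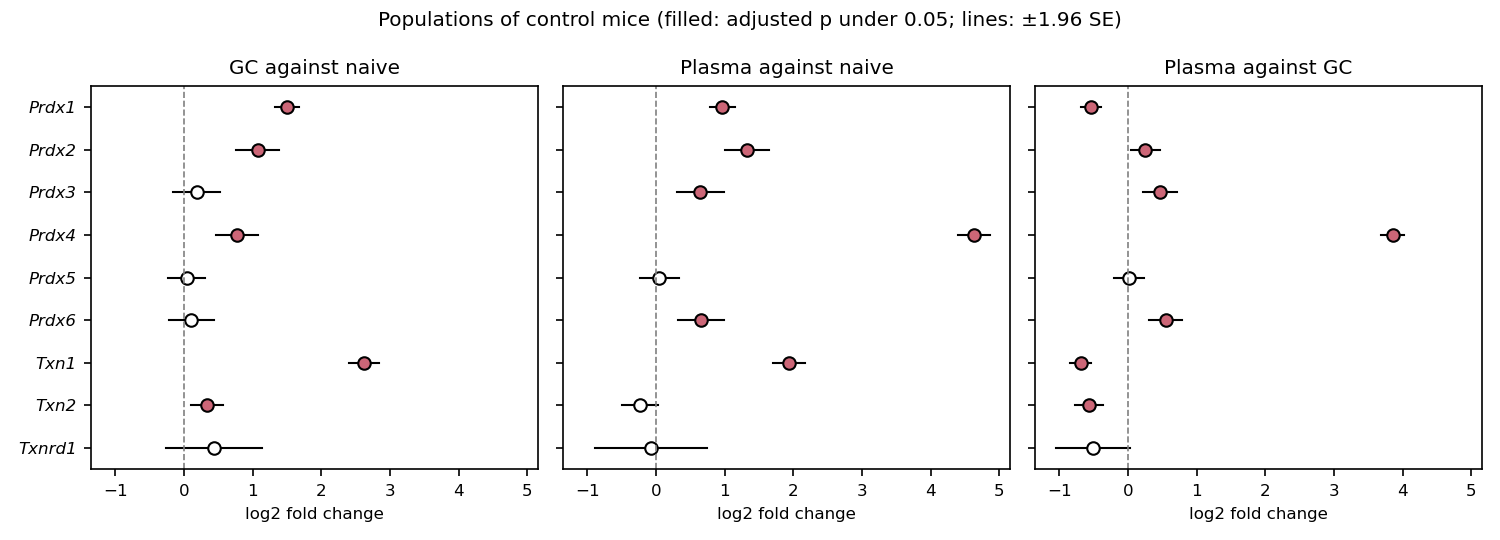
Each point is the log2 fold change (horizontal axis) of a gene (vertical axis) between 2 populations of control mice, with a line for its 95% interval; filled points passed an adjusted p under 0.05. Prdx4 stands at 4.63 and 3.85 in the plasma cell panels and Txn1 at 2.62 in the GC panel, while with uncorrected library totals Prdx1, Prdx2, Prdx3, Prdx5 and Prdx6 turn direction in plasma cells against naive, and Prdx2, Prdx3, Prdx5 and Prdx6 against GC.

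The c-RelTG mice, fitted on their own, gave similar values. In GC against naive B cells 7 of 9 genes were higher and none lower (27.5% and 26.5% of 7016 genes tested), with Prdx3 at 0.49 (SE 0.16, adjusted p = 0.00638, but 0.0555 without mouse 16 and 0.0783 in thinned counts) and Prdx6 at 0.78 (SE 0.16, adjusted p = 2.01e-05) in addition to the 5 of the controls. In plasma cells against naive 6 were higher (28% of all genes) and Txn2 was lower by a log2 difference of -0.49 (26.9% of all genes). Prdx4 was again the largest at 4.70 (SE 0.12, adjusted p = 5.05e-58). In plasma cells against GC B cells 1 gene was higher (31.2% of all genes), Prdx4 at 3.88, and 3 were lower (37.6%), Prdx1 at -0.53, Txn1 at -0.68 and Txn2 at -0.80. Prdx2 in this comparison, at 0.21 (SE 0.11, adjusted p = 0.0756), was called higher with RLE scaling, without immunoglobulin genes, by DESeq2, in thinned counts (0.54) and without mouse 15 or 16 (adjusted p from 0.0188 to 0.0449), and was at -1.13 with uncorrected library totals. Prdx3 and Prdx6 differed between plasma and GC B cells by 0.03 and 0.04 in c-RelTG mice, where in controls they had differed by 0.46 and 0.55. The Txn2 difference of 0.32 between GC and naive B cells was lost without mouse 7 or 16 (adjusted p = 0.0699 and 0.0546) and in thinned counts (0.09, adjusted p = 0.632). The rise of Prdx3 from naive to plasma cells, 0.52, was also lost in thinned counts (0.29, adjusted p = 0.353).

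The second comparison asked what the c-Rel transgene changed within each population. In GC B cells 3 of 9 genes were higher in c-RelTG mice and none was lower (3.58% of 6393 genes tested were higher, 4.1% lower): Txn1, Prdx6 and Prdx3. In plasma cells 1 of the 8 genes tested was higher, again Txn1, and none was lower (2.31% of 4538 genes were higher, 4.03% lower). In naive B cells none of 7 was called (0.61% of 2131 genes were higher, 0.516% lower). The median log2 difference of the genes tested was 0.06 in GC B cells and -0.01 in plasma cells, against -0.00230 and 0.00225 over all genes.

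Txn1 in GC B cells ran from 594 through a median of 669 to 796 CPM in controls and from 749 through 875 to 978 in c-RelTG mice. The groups overlapped, with 6 of 8 transgenic libraries above the highest control and all 8 above the control median. The log2 difference was 0.33 (SE 0.06, adjusted p = 0.000249), and it lay between 0.30 and 0.36 when each mouse was left out in turn. In plasma cells Txn1 ran from 329 through 425 to 463 CPM in controls and from 448 through 536 to 605 in c-RelTG mice, with 7 of 8 transgenic libraries above the highest control. The difference was 0.36 (SE 0.08, adjusted p = 0.0024). In naive B cells, where Txn1 averaged 111 ± 33.7 CPM in controls and 132 ± 20.0 in c-RelTG mice, the difference was 0.25 (95% interval -0.10 to 0.60, adjusted p = 0.655).

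Prdx6 in GC B cells ran from 75.7 through a median of 87.1 to 110 CPM in controls and from 91.3 through 130 to 159 in c-RelTG mice. The groups overlapped through 1 transgenic library, and the other 7 lay above the highest control. The difference was 0.51 (SE 0.11, adjusted p = 0.00119). Prdx3 in GC B cells ran from 63.1 through 85.1 to 102 CPM in controls and from 86.7 through 115 to 136 in c-RelTG mice, again with 7 of 8 transgenic libraries above the highest control. Its difference was 0.38 (SE 0.10, adjusted p = 0.0131). In TMM-scaled CPM both genes in c-RelTG GC B cells stood near their plasma cell level. They were at 132 ± 24.6 CPM for Prdx6 and 114 ± 14.8 for Prdx3, against 132 ± 24.8 and 117 ± 19.3 in control plasma cells. With uncorrected library totals the log2 difference of c-RelTG plasma cells from c-RelTG GC B cells was -1.29 for Prdx6 and -1.30 for Prdx3.

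The animal numbers in the labels run in 2 stretches, mice 1 to 8 and mice 9 to 16, each with 4 mice per genotype. In GC B cells the Txn1 difference was 0.30 (adjusted p = 0.0557) in mice 1 to 8 and 0.35 (0.00814) in mice 9 to 16. Prdx3 was at 0.36 (0.338) and 0.40 (0.0858). Prdx6 was at 0.28 (0.505) in mice 1 to 8 and 0.72 (0.00169) in mice 9 to 16, and the difference between the stretches was not tested. Txn1 in plasma cells was at 0.45 (0.0294) and 0.28 (0.289). Directions were the same in both stretches, with fewer mice behind each value.

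Other measures moved with genotype in GC B cells. Library totals had medians of 436184 UMIs in controls and 561876 in c-RelTG mice, and the 3 genes kept their calls after thinning to 1 depth (0.32, 0.50 and 0.38 for Txn1, Prdx6 and Prdx3). Summed GC markers were 1378 ± 76.8 CPM in controls and 1298 ± 72.9 in c-RelTG mice, and naive markers other than Ighm 607 ± 101 and 420 ± 134. Their part in the result was not tested. Erythroid markers summed to 57.6 to 533 CPM in controls and 30.0 to 1111 in c-RelTG mice. Mice 3, 6 and 15 had a GC library over 500 CPM, whereas mouse 1 had a plasma cell library over it and a GC library at 135 CPM. Without these 4 mice, an alternative chosen after seeing the data, Txn1 was at 0.31 (adjusted p = 0.00915), Prdx6 at 0.62 (0.0028) and Prdx3 at 0.38 (0.0555). T cell markers in plasma cells summed to 54.4 ± 16.04 CPM in controls and 32.0 ± 14.3 in c-RelTG mice, and plasma cell markers to 127375 ± 16567 and 94602 ± 15517. In control plasma cells Jchain alone made up most of the plasma cell sum, and the sum without Jchain was not taken. Naive markers in plasma cells summed to 285 ± 69.3 CPM in controls and 140 ± 34.2 in c-RelTG mice without Ighm, and to 290028 ± 69567 and 100126 ± 34775 with it. The part of these lists in the Txn1 difference was not tested.

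The remaining genes did not pass the test for genotype. Prdx1 tended to lower values, at -0.22 in naive B cells (95% interval -0.45 to 0.01, adjusted p = 0.488), -0.12 in GC B cells (-0.27 to 0.02, adjusted p = 0.352) and -0.09 in plasma cells (-0.25 to 0.08, adjusted p = 0.658). Prdx4 differed by 0.05 in plasma cells (95% interval -0.09 to 0.18, adjusted p = 0.761), with 1513 ± 181 CPM in controls and 1579 ± 111 in c-RelTG mice. Prdx2, Prdx5 and Txn2 had intervals that included 0 in all 3 populations. Prdx4 and Txnrd1 in naive B cells and Txnrd1 in plasma cells were below the expression filter; without it they were at -0.05 (95% interval -0.55 to 0.44), -0.22 (-1.19 to 0.75) and 0.24 (-0.40 to 0.88).

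**Figure D4:**
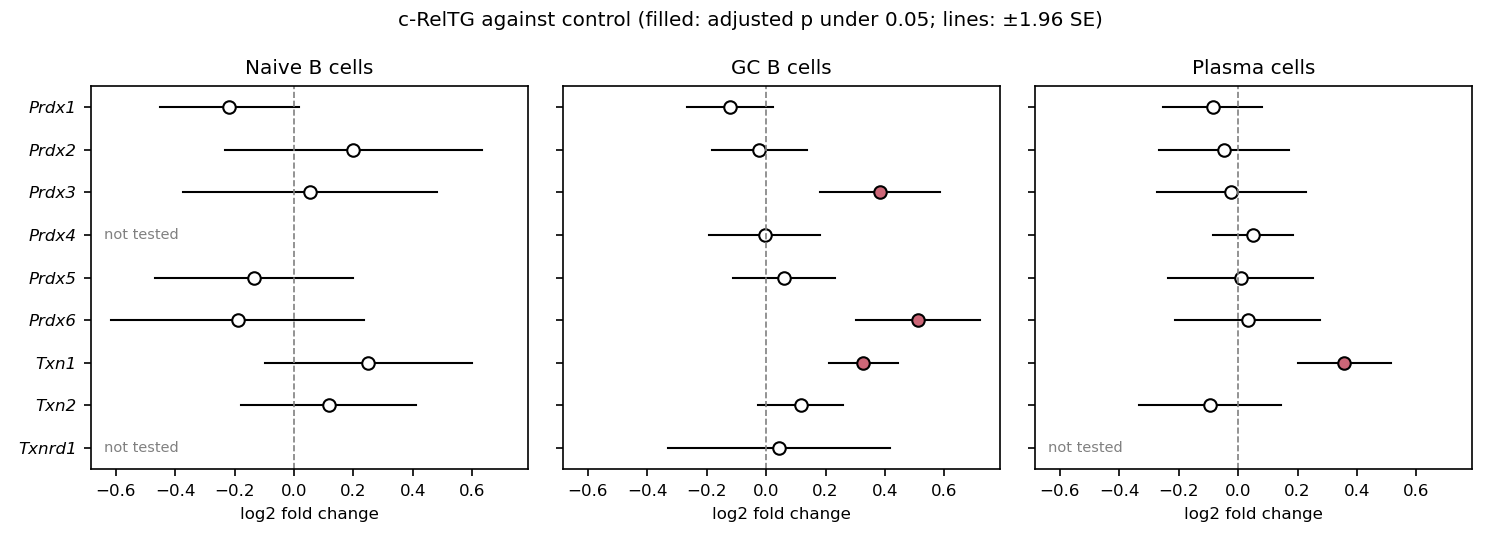
Each point is the log2 fold change (horizontal axis) of a gene (vertical axis) in c-RelTG against control mice, 8 each, with a line for its 95% interval; filled points passed an adjusted p under 0.05. Txn1 stands at 0.33 in GC B cells and 0.36 in plasma cells, and Prdx6 and Prdx3 at 0.51 and 0.38 in GC B cells.

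Whether the transgene acted differently in different populations was tested as the difference between 2 genotype effects, in 1 fit of all 48 libraries. None of the 9 genes passed in any of the 3 contrasts by edgeR (of 7744 genes, 0.129%, 1.16% and 1.58% passed for GC against naive, plasma against naive and plasma against GC). At an unadjusted p under 0.05, which 8.37% and 12.4% of all genes had for GC against naive and for plasma cells against GC, stood Prdx6 for GC against naive (0.69, SE 0.24, adjusted p = 0.293) and, for plasma cells against GC B cells, Prdx6 (-0.48, SE 0.17, adjusted p = 0.133) and Prdx3 (-0.41, SE 0.17, adjusted p = 0.254). The Txn1 effects were close to each other, with 0.03 between plasma and GC B cells (95% interval -0.18 to 0.23) and 0.07 between GC and naive B cells (-0.26 to 0.41). These contrasts share their libraries with the tests within each population.

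Of the other thioredoxin system genes, 9 of 14 were tested in control mice. Txnip, which encodes the thioredoxin-binding inhibitor, fell from 284 CPM in naive to 50.9 in GC B cells (-2.49, SE 0.13, adjusted p = 6.40e-35) while Txn1 rose, and stood at 210 CPM in plasma cells. Sesn1, a stress-induced sestrin, fell in the same comparison from 122 to 9.62 CPM (-3.59, SE 0.25, adjusted p = 1.67e-24). Txnl1, a thioredoxin-like protein, rose from 114 to 252 CPM (1.13, SE 0.13, adjusted p = 1.34e-13). In all, 2 of 9 were higher and 2 lower in GC than in naive B cells, shares near those of all genes (26.6% and 24.7%).

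Of the enzymes that use thioredoxin or partner with it, 5 of 7 tested were higher and 1 lower in control GC than in naive B cells (26.6% and 24.7% of all genes). Rrm1 and Rrm2, the subunits of ribonucleotide reductase, rose from 21.7 to 173 CPM (2.96, SE 0.22, adjusted p = 2.99e-23) and from 22.9 to 512 CPM (4.46, SE 0.35, adjusted p = 1.82e-10). In plasma cells against GC B cells 5 of 7 were lower and 1 higher (35.4% and 30.4% of all genes). Apex1, a DNA repair and redox protein, was at 147.8 CPM in GC B cells and 21.8 in plasma cells (-2.69, SE 0.17, adjusted p = 2.09e-29). For NADPH supply, 7 of 10 tested were higher and 2 lower in GC than in naive B cells (26.6% and 24.7% of all genes), with Tkt of the pentose phosphate pathway at 525 against 223 CPM (1.23, SE 0.10, adjusted p = 2.24e-22) and the mitochondrial folate enzyme Mthfd2 at 170 against 29.9 (2.48, SE 0.20, adjusted p = 1.89e-21).

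Genes of ER disulfide formation were higher in plasma cells, as Prdx4 was. In control mice 10 of 12 tested genes were higher in plasma than in naive B cells and 12 of 12 higher than in GC B cells (27.1% and 30.4% of all genes), with a list median of 2.95 in both, against 0.00831 and -0.0934 over all genes. In GC against naive B cells, where Prdx4 was higher, 1 gene of the list was higher and 5 were lower (26.6% and 24.7% of all genes), with a median of -0.21. The chaperone Hspa5 rose from 489 to 4190 CPM against naive (3.12, SE 0.08, adjusted p = 2.79e-65). The protein disulfide isomerase gene P4hb, whose product exchanges disulfides with Prdx4, rose from 169 to 1270 CPM (2.94, SE 0.09, adjusted p = 4.11e-56), and Txndc11 from 32.0 to 485 CPM (3.93, SE 0.17, adjusted p = 5.12e-44). The ER selenoprotein gene Selenos stood at 632 CPM in plasma cells against 74.9 in naive B cells (3.09, SE 0.13, adjusted p = 6.35e-45). Among the other peroxide enzymes, catalase (Cat) was lowest in plasma cells, at 54.3 CPM against 303 in GC and 210 in naive B cells (-2.43 and -1.91, adjusted p = 2.76e-32 and 5.67e-19). The glutathione peroxidase gene Gpx1 fell from 894 CPM in naive to 472 in plasma cells (-0.90, SE 0.08, adjusted p = 4.52e-19). Most of their lists went the other way in control plasma cells against naive. Of 8 glutathione genes tested 5 were higher and 2 lower, and of 3 superoxide and catalase genes 2 were higher and 1 lower (27.1% and 25.4% of all genes). Sod1 stood at 427 against 228 CPM and Sod2 at 169 against 89.2, but both turned direction with uncorrected library totals.

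Some of these surrounding genes were called for genotype, and the number tested in each list is given with them. In GC B cells 3 of 10 NADPH supply genes tested were higher and none lower (3.58% and 4.1% of all genes): Pgd at 0.29 (SE 0.08, adjusted p = 0.0153), Shmt2 at 0.30 (SE 0.09, adjusted p = 0.0205) and Tkt at 0.19 (SE 0.06, adjusted p = 0.0287). The Tkt call was lost without mouse 3, 10, 11, 13, 14 or 16 (adjusted p from 0.0516 to 0.0697), and that of Shmt2 without mouse 9, 10 or 16 (0.0519 to 0.0613). Both were lost in 1 fit of all 6 groups (0.0814 and 0.0515) and without mice 1, 3, 6 and 15 (0.184 and 0.0676). Apex1 was higher by 0.48 (SE 0.10, adjusted p = 0.00123), at 209 against 147.8 CPM. It was the 1 gene called of the 6 tested in its list. In plasma cells Idh2, a mitochondrial source of NADPH, was higher by 0.41 (SE 0.09, adjusted p = 0.00273) and Hspa5 by 0.33 (SE 0.08, adjusted p = 0.00674). These were 1 of 10 NADPH supply genes and 1 of 13 ER disulfide genes tested (2.31% of all genes were higher, 4.03% lower). Selenop, the secreted selenium transport protein, was lower in both populations, by log2 differences of -0.82 in GC B cells (SE 0.19, adjusted p = 0.0118) and -1.40 in plasma cells (SE 0.15, adjusted p = 1.86e-05), where it stood at 549 CPM in controls and 212 in c-RelTG mice. It was the 1 gene called of 12 tested in the selenoprotein list in GC B cells and of 10 in plasma cells. In mice 1 to 8 alone, Selenop in plasma cells kept its call and the other genes named here did not. The Pgd call in GC B cells was also lost in mice 9 to 16 alone (0.28, adjusted p = 0.184). No gene of the glutathione, superoxide and catalase, NRF2 or other thioredoxin lists was called for genotype by edgeR in any population. Few were tested in naive, GC and plasma cells: 1, 7 and 7 glutathione genes, 3 superoxide and catalase genes in each, 4, 5 and 5 NRF2 genes and 4, 8 and 6 other thioredoxin genes. In naive B cells 0.61% of all genes were higher and 0.516% lower. At the shares of all genes, lists this short could hold no call, so no conclusion is drawn from their absence.

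The genes most like each member over the 48 libraries were found by Pearson's r of log2(CPM + 1) among 7433 genes, as a description: the libraries come from 3 populations, so r mostly follows the population levels, and Txn1 and Prdx1 share their leading gene. Prdx4 was most like Mzb1 (r = 0.984), a plasma cell ER protein gene, then Hdlbp (0.982) and Kdelr2 (0.980). Txn1 was most like Calm3 (0.957), Cmpk1 (0.941) and Mthfd2 (0.931), and Prdx1 most like Calm3 (0.939), Oaz1 (0.936) and Eif5a (0.932). Txn2 was most like Hspd1 (0.852), the mitochondrial chaperonin gene, and Prdx3 like Grpel1 (0.721), a mitochondrial import cochaperone gene. For Prdx2 and Prdx6 the first genes were Uck2 (0.887) and Psmb6 (0.745). Prdx5 and Txnrd1 reached 0.592 with Mrps10 and 0.735 with Psmg1, the latter at a Spearman rho of 0.424 only. By Spearman's rho the first gene of Txn2 remained Hspd1, whereas that of Prdx4 was Txnl1, that of Txn1 Rrm2 and that of Prdx1 Eif5a.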

How the data were processed

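Libraries were made as bulk SCRB-seq from sorted spleen cells, per the labels' protocols. Per the submitters' processing notes, the tools included STAR and the build was GRCm38.p5. The table that the authors deposited holds UMI counts of 20007 genes in 48 libraries and was used without change. The STAR version, annotation, strand and UMI collapsing were not given in the sources used here. Symbols and coordinates came from GENCODE M21 (19701 genes named; the others held 0.424% of UMIs).

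Tests used the quasi-likelihood method of edgeR 4.0.16 under R 4.3.3 (TMM, filterByExpr, robust dispersion) on all genes passing the filter, with Benjamini-Hochberg adjustment and a threshold of 0.05. Genotypes were compared within each population (16 libraries), populations within each genotype (24 libraries as 3 groups), and genotype effects against each other in 1 fit of 48. Intervals are 95%, from the SE by a normal approximation. CPM use TMM totals over all libraries, and n is 8 mice per group, each mouse giving 1 library per population. Intervals are for the estimated difference between groups and do not give the spread of single mice, which is the SD. No 2 libraries were identical. Libraries with the same animal number come from 1 mouse. The mean correlation of their deviations from group means was 0.0246 to 0.0757, against -0.0108 to -0.00347 between different mice. The best match was the own mouse in 0 (c-RelTG naive and plasma cells) to 6 (control GC and plasma cells) of 8 mice. The main fits did not use this pairing, and the mouse was a block in an alternative fit. Alternatives were RLE scaling, uncorrected totals, TMM after leaving out immunoglobulin genes, no filter, DESeq2 1.42.0, thinned counts and the mouse block. Others were the 2 stretches of animal numbers (apart or as a covariate), 1 fit of all 6 groups and each mouse left out. Leaving out mice 1, 3, 6 and 15 was chosen after seeing the data. Uncorrected totals without immunoglobulin genes were not tried. Only the genotype test within a population was run on simulated counts. The comparisons between populations and the fit of 48 were not simulated.

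The 9 genes were named by rule; for each of 8 surrounding lists up to 4 passing genes with the lowest adjusted p were eligible, and for each member the 3 genes with the highest r at a mean of at least 10 CPM. The members and lists were chosen with earlier results of these data known, so their counts beside the share of all genes are a description.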

Additional observations from a re-analysis of the deposited data

Results flagged for a closer look

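In 54 tests of a group's 8 values for a value far from the others (a gap above Dixon's 95% critical share of the range), 2 libraries stood out. Prdx6 in control naive B cells was at 146.2 CPM in mouse 3, where the other 7 lay between 58.9 and 97.5 (ratio 0.558). Txn2 in control GC B cells was at 171.1 CPM in mouse 1, where the others lay between 207 and 237 (ratio 0.539). Chance alone marks a library in about 1 of 20 groups.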

How the results depend on the processing

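TMM, RLE and TMM after leaving out immunoglobulin genes gave the same direction for every called difference of the 9 genes. Uncorrected library totals did not, in comparisons with plasma cells. In control plasma cells against naive they gave -0.428 for Prdx1, -0.0626 for Prdx2, -0.743 for Prdx3, -1.34 for Prdx5, -0.735 for Prdx6, -0.171 for Shmt2, -0.47 for Sod1 and -0.456 for Sod2. Against GC B cells they gave -1.20 for Prdx2, -0.993 for Prdx3, -1.44 for Prdx5, -0.91 for Prdx6, -0.0209 for Glrx, -0.631 for Idh2, -0.36 for Sod2 and -0.922 for Txnl1, and thinned counts gave -0.222 for Prdx2. In c-RelTG mice against naive the values were -0.192 for Prdx1, -0.204 for Prdx2, -0.719 for Prdx3, -1.10 for Prdx5, -0.41 for Prdx6 and -0.90 for Txnrd1, and against GC B cells -1.13 for Prdx2, -1.30 for Prdx3 and -1.29 for Prdx6, with 9 members called. Another 95 changes of sign concerned differences of the 9 genes that were called neither before nor after.

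Of the 9 genes, 0 were called for genotype in GC B cells in mice 1 to 8 alone and 0 in plasma cells in mice 9 to 16 alone, and 4 in control plasma cells against GC B cells in thinned counts. Over all genes, calls for genotype in naive B cells were 24 in all, 11 by DESeq2, 0 in 1 fit of 6 groups, 11 and 2 in the 2 stretches of mice, 11 without mice 1, 3, 6 and 15 and 13 to 31 with 1 mouse left out. In GC B cells they were 491 in all, 55 and 198 in the stretches, 234 without those mice and 340 to 747 with 1 left out, the highest without c-RelTG mouse 8. In plasma cells they were 288 in all, 71 and 106, and 147 without those mice. Thinning to the depth of naive libraries left fewer genes to test: 1372, 1380 and 1356 calls in control mice and 1529, 1459 and 1461 in c-RelTG mice for GC against naive, plasma against naive and plasma against GC. Uncorrected totals gave 5540 for control plasma cells against naive, and no filter gave 7022 and 7330 for plasma against GC B cells of control and c-RelTG mice. For differences between genotype effects, GC against naive gave 16 without a filter, 32 by DESeq2 and 17 with the replicate block, plasma against naive 59 with uncorrected totals and 40 thinned, and plasma against GC 20 thinned. Apart from these counts and Prdx2 in control plasma cells against GC B cells, the replicate block changed no call of the 9 genes. For other moved results the cause was not tested. Depth limits Txnrd1 most, at 2.50 UMIs per control naive library.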
